A study of Mus musculus with 37 samples.

Results

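Tumours grown from clones of mouse pancreatic cancer cells were compared for 10 genes of epithelial cell junctions and their regulators: the claudins Cldn3, Cldn4 and Cldn7, occludin (Ocln), Epcam, E-cadherin (Cdh1), the splicing regulators Esrp1 and Esrp2, and the transcription factors Grhl2 and Elf3. The genes were taken by symbol from the 39017 genes of the count table. They were chosen by their measured expression, from values of the comparison of T cell high with T cell low clones and of clone bulk_7160c2. Levels in those groups are therefore given as descriptions, with no test.

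Epithelial cells are sealed to their neighbours by tight junctions, in which claudins form the strands of the barrier and occludin is a further membrane protein. They are held together by adherens junctions, in which E-cadherin of one cell binds E-cadherin of the next. Esrp1 and Esrp2 bind RNA and set the epithelial pattern of alternative splicing, and Grhl2 and Elf3 are transcription factors of epithelia. In tumours of the pancreatic duct these genes are widely used to place cancer cells between an epithelial and a mesenchymal state.

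RNA was sequenced in bulk from 37 tumours of 19 clones, grown under the skin of C57BL/6 mice for 3 weeks with no treatment. By their label, 7 clones with 15 tumours are T cell high, 2 clones with 4 tumours are intermediate and 7 clones with 15 tumours are low. The other 3 tumours, of 3 clones, have no phenotype label. The sources used here give neither the genotype of the cells nor the way the phenotype was scored. Each line is 1 clone, so tumours of a clone share the implanted cells, and the clone was the replicate in comparisons between phenotypes.

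The libraries held 7.39 to 161.7 M counts, with a median of 32.3 M. They fell into sets that stand apart by the sum of 4 genes of other organs. The summed level of Myh6 and Myh7, myosins of heart muscle, and of the liver genes Cps1 and Serpina3k was 106 to 5922 counts per M counts of the library (CPM) in 19 libraries, called liver-rich here. It was at most 0.538 CPM in the other 18, called liver-poor, which come from 16 clones. The liver-rich set holds every tumour numbered 1 and tumour 2 of bulk_2669c4, and it includes 7 of 15 high, 2 of 4 intermediate and 8 of 15 low tumours. Albumin (Alb) was not part of that sum and reached 124 CPM in a liver-poor library, tumour 2 of bulk_6419c1. Wider lists of 10 liver and 6 heart muscle genes overlapped between the sets. The heart list summed to 538 CPM in the liver-poor tumour of bulk_7062c3 and to 120 CPM in the liver-rich tumour of bulk_6883c1. The liver list summed to 595 CPM in the liver-poor tumour 2 of bulk_6419c1 and to 321 CPM in that of bulk_6883c1. Levels are given for all libraries and for the liver-poor ones. In bulk tissue, fewer cells of a type and less RNA per cell cannot be told apart.

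Among the members with a RefSeq promoter window, Cldn3, Cldn4, Cldn7 and Epcam varied most between clones, and their windows are printed 5′ to 3′, from 250 bases before to 50 bases after the annotated start (RefSeq, GRCm38.p6). Capitals mark CAGGTG or its reverse complement CACCTG, an E-box sequence that Snail and ZEB proteins are known to bind. The windows lie at chr5:134985964-134986263 (plus strand) for Cldn3, chr5:134946885-134947184 (minus strand) for Cldn4, chr11:69965171-69965470 (plus strand) for Cldn7 and chr17:87635729-87636028 (plus strand) for Epcam.
Cldn3: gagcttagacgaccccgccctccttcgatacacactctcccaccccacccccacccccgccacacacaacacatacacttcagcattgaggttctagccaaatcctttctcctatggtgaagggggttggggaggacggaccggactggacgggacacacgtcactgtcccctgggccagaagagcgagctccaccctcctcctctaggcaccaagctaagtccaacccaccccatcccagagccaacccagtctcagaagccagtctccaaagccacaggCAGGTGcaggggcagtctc
Cldn4: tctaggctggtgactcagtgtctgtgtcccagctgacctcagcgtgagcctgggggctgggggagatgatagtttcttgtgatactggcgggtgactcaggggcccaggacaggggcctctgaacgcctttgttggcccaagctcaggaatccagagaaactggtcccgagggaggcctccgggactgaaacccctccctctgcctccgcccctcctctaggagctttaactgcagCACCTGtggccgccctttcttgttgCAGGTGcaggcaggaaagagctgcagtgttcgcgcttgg
Cldn7: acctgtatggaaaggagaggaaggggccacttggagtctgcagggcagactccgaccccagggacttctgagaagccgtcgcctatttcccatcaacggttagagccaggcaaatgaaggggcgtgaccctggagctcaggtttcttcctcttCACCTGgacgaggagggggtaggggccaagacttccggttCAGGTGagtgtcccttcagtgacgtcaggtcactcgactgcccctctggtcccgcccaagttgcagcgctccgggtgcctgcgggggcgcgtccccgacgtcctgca
Epcam: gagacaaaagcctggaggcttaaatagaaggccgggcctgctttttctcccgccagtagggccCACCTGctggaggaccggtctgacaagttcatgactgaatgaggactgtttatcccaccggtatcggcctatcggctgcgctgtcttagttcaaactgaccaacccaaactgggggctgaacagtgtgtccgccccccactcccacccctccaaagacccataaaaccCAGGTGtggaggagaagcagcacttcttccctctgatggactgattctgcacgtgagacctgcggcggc
Each of these windows holds CAGGTG on either strand once or more. Counted from 0 at the annotated start, the matches begin at 31 in Cldn3, at -14 and 11 in Cldn4, at -97 and -57 in Cldn7 and at -187 and -19 in Epcam. RefSeq lists a further Cldn7 window, at chr11:69964529-69964828, that holds none. This further window, not printed here, spans the start of the whole gene at 69964779. Elf3 has a match at -140, and the 2 Ocln windows overlap and hold 2 matches in all, 1 of them at 7 from one start and -213 from the other, and 1 at -68. Of all 32851 promoter windows of 300 bases, 20.2% hold CAGGTG on either strand, against 7 of the 8 windows of these 6 members, which include the overlapping Ocln pair. No window of Esrp1, Esrp2, Cdh1 or Grhl2 was scanned. The motif AACCGGTT, which reads the same on both strands and is known for Grhl proteins, is in 0 of the 8 windows and in 0.146% of all windows. The 4 printed windows are 57.0% to 62.3% G and C, the further Cldn7 window is 52.0%, and the median over all windows is 52.7%. Such matches describe letters in a window and say nothing of binding in these tumours.

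Cldn4 and Cldn3 are neighbours, 39.3 kb apart on chromosome 5, at 134945119-134946934 on the minus strand and 134986214-134987472 on the plus strand (GRCm38). Esrp2 (106130319-106136974) and Cdh1 (106603351-106670246) both lie on chromosome 8, 466.4 kb apart. Cldn7 (69964779-69967885) lies on chromosome 11, Epcam (87635979-87651129) on chromosome 17 and Esrp1 (11331933-11386783) on chromosome 4. Ocln (100496507-100552718) lies on chromosome 13, Grhl2 (37233036-37363569) on chromosome 15 and Elf3 (135253575-135258568) on chromosome 1.

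Per kilobase of exon, Cdh1 was the most abundant member, with a median of 147 CPM per kb over the 37 tumours. Elf3 followed at 48.6, Epcam at 37.1, Cldn3 at 27.0, Cldn7 at 15.6, Esrp2 at 13.3, Cldn4 at 12.8 and Ocln at 6.55 CPM per kb. Esrp1 had 0.709 and Grhl2 0.112 CPM per kb, so both were scarce RNAs in most tumours. Neighbours in this order overlapped widely across tumours. The place of Cldn3 depends on the libraries used. Its median over clones was 64.0 CPM in tumours numbered 1 and 6.53 CPM in those with higher numbers. For Cldn7 these medians were 30.4 and 34.3 CPM.

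**Figure D1:**
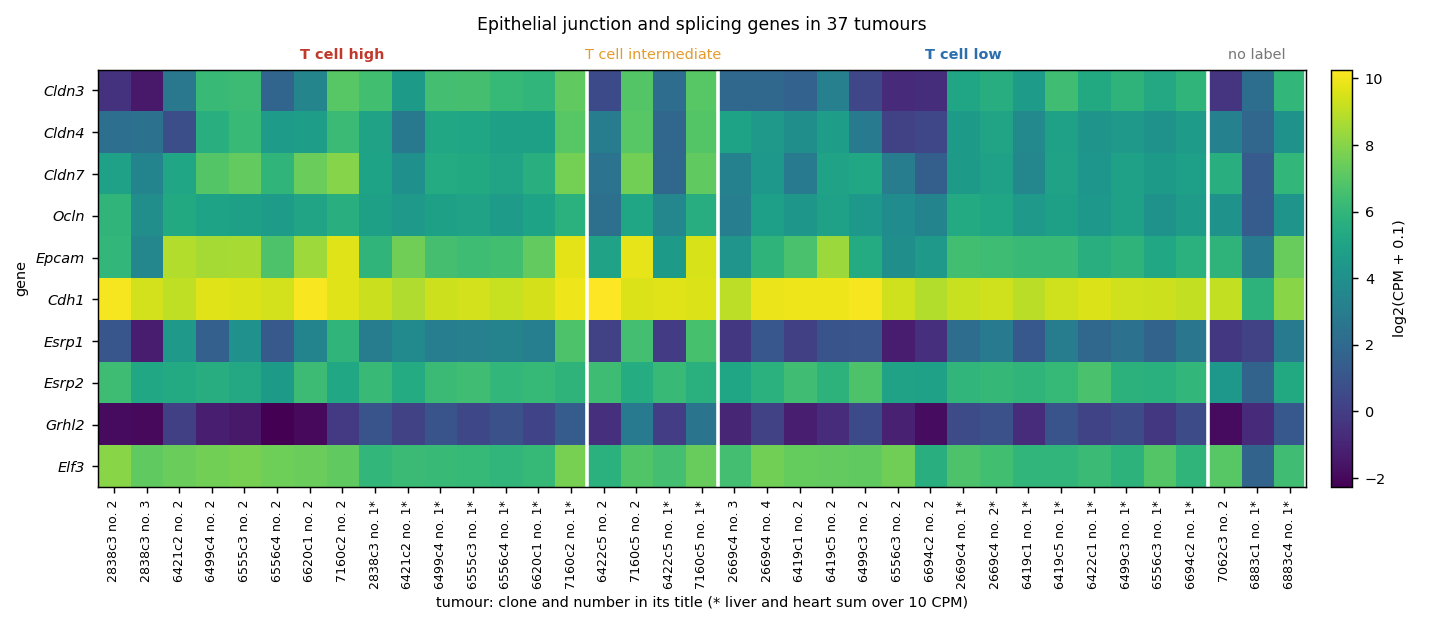
Level of each of the 10 genes (down the page) in each of the 37 tumours (across), as log2(CPM + 0.1) by colour, with tumours grouped as high, intermediate, low and without a label, and liver-rich libraries marked by a star. Cldn3, Cldn4, Cldn7, Epcam and Esrp1 range most from tumour to tumour, and Cdh1 ranges least, 2.73-fold among the liver-poor tumours.

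The members differed in how much they varied between clones. Over the 16 clones with a liver-poor library, the standard deviation (SD) of log2 CPM was 2.88 for Cldn3, 2.44 for Esrp1, 2.13 for Cldn4, 2.01 for Cldn7 and 1.99 for Epcam. It was 1.39 for Grhl2, 0.83 for Ocln, 0.68 for Esrp2, 0.62 for Elf3 and 0.41 for Cdh1. The median over 15416 genes with a mean of at least 0.5 CPM was 0.40, so E-cadherin varied about as much as the middle gene and the other 9 members varied more. Between the highest and the lowest liver-poor tumour, Cldn3 differed 474-fold, Esrp1 306-fold and Cldn4 127-fold, and Cdh1 differed 2.73-fold.

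Cldn3, a barrier-forming claudin, ranged from 0.274 to 145 CPM in the 15 high tumours (median 69.4). It had 4.60 and 1.38 CPM in the intermediate tumours 1 and 2 of bulk_6422c5, and 130.01 and 122 CPM in tumours 1 and 2 of bulk_7160c5. In the 15 low tumours it ranged from 0.480 to 84.5 CPM (median 24.2). The phenotypes overlapped, and 5 of the 15 high tumours lay above every low tumour. Without bulk_7160c2 it was 3 of 13. High against low values chose the genes, so such counts, here and below, restate that choice. In liver-poor libraries Cldn3 had a lowest, median and highest level of 0.274, 8.64 and 130.01 CPM in 8 high tumours, against 0.480, 3.07 and 9.01 CPM in 7 low tumours. There, 4 of the 8 high tumours lay above every low tumour, those of bulk_7160c2, bulk_6555c3, bulk_6499c4 and bulk_6620c1, while the lowest tumour of all belonged to the high clone bulk_2838c3.

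Cldn4, the neighbouring claudin, had 1.56, 29.3 and 128 CPM (lowest, median, highest) in the 15 high tumours and 1.02, 21.6 and 32.8 CPM in the 15 low tumours. The intermediate tumours had 3.53 and 8.10 CPM in bulk_6422c5 and 119 and 129.5 CPM in bulk_7160c5. In liver-poor libraries the levels were 1.56, 26.0 and 76.5 CPM in high tumours and 1.02, 15.6 and 31.8 CPM in low tumours. The groups overlapped, and 3 of the 8 liver-poor high tumours stood above all low ones, those of bulk_7160c2, bulk_6555c3 and bulk_6499c4.

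Cldn7 is a claudin found along the lateral membrane of epithelial cells and a known partner of Epcam. It had 10.2, 43.2 and 252 CPM in the 15 high tumours and 2.82, 23.2 and 36.1 CPM in the 15 low tumours. The intermediate tumours had 3.64 and 5.52 CPM in bulk_6422c5 and 145 and 190.2 CPM in bulk_7160c5. Of the high tumours, 9 of 15 lay above every low tumour, and 7 of 13 without bulk_7160c2. In liver-poor libraries Cldn7 had 10.2, 90.7 and 252 CPM in high tumours, of which 5 of 8 lay above every low one, against 2.82, 9.29 and 36.1 CPM in low tumours.

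Ocln, the occludin gene, varied in a narrower band. It had 15.001, 31.3 and 61.3 CPM in high tumours and 8.28, 21.7 and 42.6 CPM in low tumours (15 each), with 11.4 and 5.001 CPM in bulk_6422c5 and 45.7 and 35.6 CPM in bulk_7160c5. In liver-poor libraries it had 15.001, 32.5 and 61.3 CPM in high tumours and 8.28, 20.6 and 29.6 CPM in low tumours, and 5 of the 8 high tumours lay above every low one.

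Epcam, an adhesion molecule of simple epithelia, had 11.4, 153 and 869.9 CPM in the 15 high tumours and 15.7, 59.3 and 329 CPM in the 15 low tumours. The intermediate tumours had 23.3 and 30.8 CPM in bulk_6422c5 and 728 and 892 CPM in bulk_7160c5. In liver-poor libraries the levels were 11.4, 366 and 798 CPM in high tumours, against 15.7, 43.8 and 329 CPM in low tumours. The single low tumour at 329 CPM was tumour 2 of bulk_6419c5, and 5 of the 8 high tumours exceeded it. The lowest Epcam of the liver-poor high tumours was again in bulk_2838c3.

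Cdh1, E-cadherin itself, did not follow the claudins. It had 438, 689.8 and 1132 CPM in high tumours and 451, 656 and 1077 CPM in low tumours (15 each). The intermediate tumours had 802 and 1231 CPM in bulk_6422c5 and 789 and 787 CPM in bulk_7160c5. In liver-poor libraries it had 527, 786 and 1132 CPM in high tumours and 451, 939 and 1077 CPM in low tumours. The ranges overlapped almost fully, and the tumour with the highest Cdh1, bulk_6422c5 tumour 2, was among the lowest for Cldn3, Cldn7 and Epcam.

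Esrp1 and Esrp2, paralogous splicing regulators, behaved differently from each other. Esrp1 had 0.320, 9.07 and 108 CPM in the 15 high tumours and 0.300, 2.20 and 8.15 CPM in the 15 low tumours, with 0.834 and 1.04 CPM in bulk_6422c5 and 99.0 and 91.8 CPM in bulk_7160c5. In all, 10 of 15 high tumours lay above every low tumour, and 8 of 13 without bulk_7160c2. In liver-poor libraries Esrp1 had 0.320, 6.68 and 60.1 CPM in high tumours, of which 6 of 8 exceeded every low one, and 0.300, 0.975 and 2.11 CPM in low tumours.

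Esrp2 was present in every tumour and did not separate the phenotypes. It had 23.6, 59.6 and 85.5 CPM in high tumours and 29.3, 61.6 and 107 CPM in low tumours (15 each). The intermediate tumours had 71.1 and 81.6 CPM in bulk_6422c5 and 52.1 and 44.6 CPM in bulk_7160c5. In liver-poor libraries its median was 40.8 CPM in high tumours and 52.8 CPM in low tumours, and 0 of the 15 high tumours lay above every low tumour.

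Grhl2, a grainyhead-like factor of epithelia, was the scarcest member. It had 0.107, 0.961 and 2.52 CPM in high tumours and 0.181, 1.0001 and 1.88 CPM in low tumours (15 each), and its lowest value rested on 4 counts. In the intermediate tumours it had 0.905 and 0.597 CPM in bulk_6422c5 and 5.72 and 7.40 CPM in bulk_7160c5, the highest levels of all 37 tumours. In liver-poor libraries its median was 0.219 CPM in high tumours and 0.426 CPM in low tumours, and 0 of the 8 high tumours lay above every low one.

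Elf3, an ETS-family factor of epithelia, had 63.9, 149.7 and 265 CPM in high tumours and 48.4, 92.1 and 195 CPM in low tumours (15 each). The intermediate tumours had 91.9 and 53.1 CPM in bulk_6422c5 and 163 and 116 CPM in bulk_7160c5. In liver-poor libraries it had 146, 175 and 265 CPM in high tumours and 48.4, 154 and 195 CPM in low tumours. The groups overlapped, and 3 of the 8 high tumours lay above every low tumour.

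**Figure D2:**
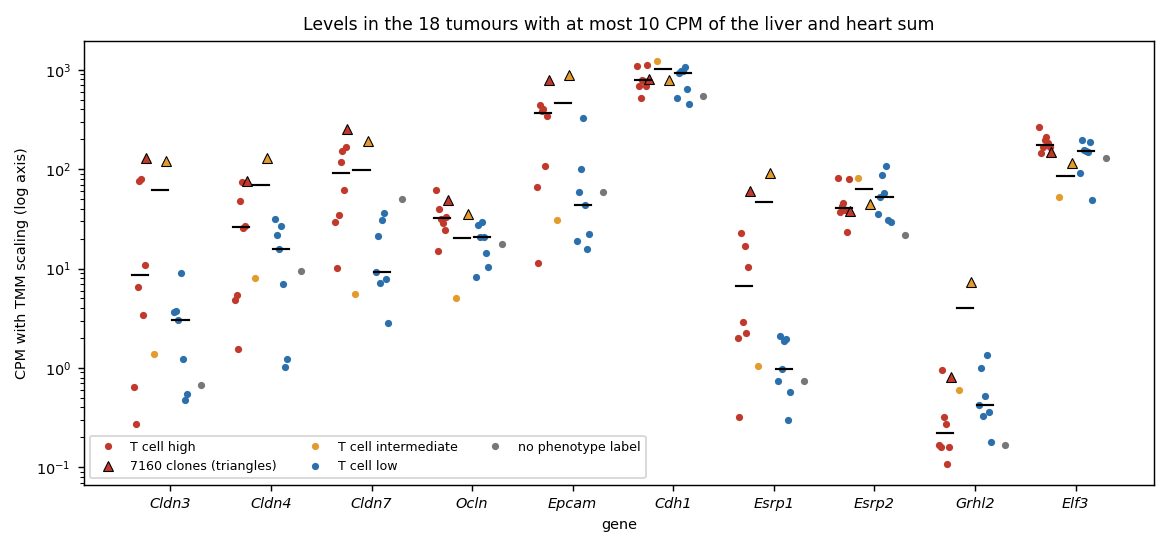
Level of each gene in CPM (log axis) in the 18 liver-poor tumours, 1 point each and by phenotype, with short bars for the group medians and triangles for bulk_7160c2 and bulk_7160c5. Esrp1 had a median of 6.68 CPM in high tumours and 0.975 CPM in low tumours, while the Cdh1 ranges overlapped.

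Between clones, with the counts of each clone's tumours summed, most members were higher in the 7 high clones than in the 7 low clones. Epcam averaged 311 ± 266 CPM in high clones and 71.5 ± 56.2 CPM in low clones (SD, n = 7 each). Cldn7 averaged 90.9 ± 67.5 CPM in high clones and 21.2 ± 9.02 CPM in low clones. Esrp1 averaged 22.1 ± 33.4 CPM in high clones and 3.16 ± 1.297 CPM in low clones, so the spread among high clones exceeded their mean. Cldn3 averaged 60.1 ± 45.3 CPM in high clones and 26.8 ± 14.4 CPM in low clones. Esrp2 averaged 56.3 ± 11.05 CPM in high clones and 68.5 ± 23.0 CPM in low clones.

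As log2 differences of high minus low clones with their standard error (SE), Esrp1 had 2.80 (0.83), Epcam 2.12 (0.67), Cldn7 2.10 (0.60), Cldn4 1.27 (0.63) and Cldn3 1.17 (0.61). Ocln had 0.61 (0.26) and Elf3 0.43 (0.20). Cdh1 had 0.04 (0.16), Grhl2 0.04 (0.41) and Esrp2 -0.28 (0.20). The median over the members was 0.89, against -0.00013 over all 20348 genes tested. Since this contrast chose the members, nothing is read from these values. The comparison called 0.0% of all genes by edgeR's quasi-likelihood test (adjusted p under 0.05), and 1516 genes had an unadjusted p under 0.05. With DESeq2 25 genes passed, with limma's voom 0, and with edgeR and the tumour number as a replicate block 77. That last fit treats tumours of 1 clone as separate samples.

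Leaving out bulk_7160c2 lowered the difference of each of the 5 most variable members and left its sign. Without that clone the log2 differences of high minus low clones were 1.72 for Cldn7, 1.61 for Epcam, 1.60 for Esrp1, 0.78 for Cldn3 and 0.75 for Cldn4. They were 0.45 for Ocln, 0.34 for Elf3, -0.04 for Cdh1, -0.29 for Esrp2 and -0.29 for Grhl2. In liver-poor libraries alone, with bulk_7160c2, they were 3.86 for Cldn3, 3.76 for Esrp1, 2.76 for Cldn7, 1.96 for Epcam and 1.51 for Cldn4. Cldn3 thus differed more in liver-poor libraries than in all libraries, and Epcam slightly less. Over 25 other settings the sign changed in 8 for Grhl2, 6 for Cdh1 and 1 for Esrp2, and in 0 for the other 7 members.

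**Figure D3:**
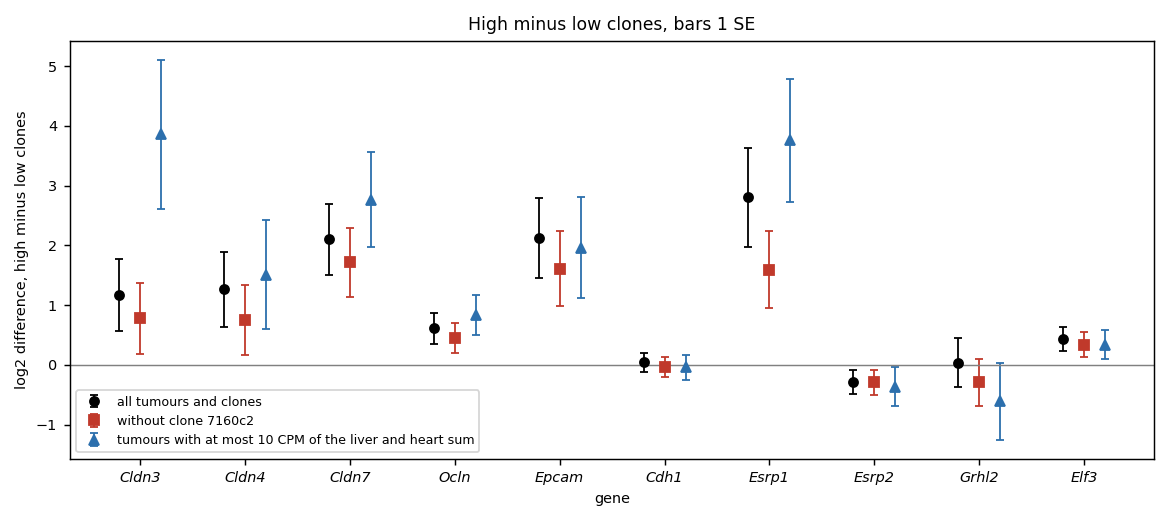
Log2 difference of high minus low clones for each gene, with its SE, for all clones, without bulk_7160c2 and in liver-poor libraries. Cldn3 moves most between settings, with 1.17 over all libraries and 3.86 in liver-poor ones, and Cdh1 lies near 0 in each.

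The clones bulk_7160c2 and bulk_7160c5, which share the first part of their name and are labelled high and intermediate, stood above the rest of the series for several members. All 4 tumours of these clones had more Cldn3, Cldn4, Epcam and Esrp1 than any of the other 30 tumours with a phenotype. For Cldn7 and Grhl2, 3 of the 4 did. Values of bulk_7160c2 chose these genes, so its place restates that choice, and tumours of 1 clone share the implanted cells. The share of all genes with such an order was not counted. Tumours 1 and 2 of bulk_7160c2 had 108 and 60.1 CPM of Esrp1 and those of bulk_7160c5 had 99.0 and 91.8 CPM, where the highest other tumour had 22.6 CPM. Their Epcam was 869.9 and 798 CPM in bulk_7160c2 and 728 and 892 CPM in bulk_7160c5, and the highest other tumour had 447 CPM. For Esrp2, Cdh1, Ocln and Elf3, 0 of the 4 tumours exceeded all the others. Grhl2 set these clones apart, with 2.52 and 0.806 CPM in bulk_7160c2 and 5.72 and 7.40 CPM in bulk_7160c5.

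By the mean log2 CPM of the 10 genes in liver-poor libraries, bulk_7160c5 came first at 6.79 and bulk_7160c2 next at 6.43. The high clones bulk_6555c3 (5.84), bulk_6499c4 (5.52) and bulk_6620c1 (5.41) followed. The low clone bulk_6419c5 (4.93) came before the high clones bulk_6421c2 (4.90) and bulk_6556c4 (4.38). The low clones bulk_6499c3 (4.37), bulk_6419c1 (4.17) and bulk_2669c4 (4.13) came next, then bulk_7062c3 (3.64, no phenotype label), the high clone bulk_2838c3 (3.59) and the intermediate clone bulk_6422c5 (3.52). The low clones bulk_6556c3 (2.90) and bulk_6694c2 (2.55) came last. Most clones have 1 liver-poor library, so this order has no replicate check.

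Some clones share the first part of their name and differ in phenotype, which gives close comparisons of 1 liver-poor tumour each, with no replicate. Cldn3 had 75.7 CPM in the high clone bulk_6499c4 and 1.23 CPM in the low clone bulk_6499c3, a 61.3-fold difference. The gap was smaller in the liver-rich tumours numbered 1, with 95.5 CPM of total counts in bulk_6499c4 and 57.0 in bulk_6499c3. Epcam had 387 CPM in bulk_6499c4 and 43.8 CPM in bulk_6499c3, and Cldn7 had 119.5 CPM in bulk_6499c4 and 36.1 CPM in bulk_6499c3. Esrp2, Grhl2 and Cdh1 ran the other way, with 46.2, 0.324 and 795 CPM in bulk_6499c4 against 107, 1.35 and 1077 CPM in bulk_6499c3. In the high clone bulk_6556c4, Cldn4 had 25.5 CPM, against 1.02 CPM in the low clone bulk_6556c3, a 24.998-fold difference. In their tumours numbered 1 it had 30.3 CPM of total counts in bulk_6556c4 and 16.8 in bulk_6556c3. Epcam had 107 CPM in bulk_6556c4 and 15.7 CPM in bulk_6556c3, and Esrp1 had 2.25 CPM in bulk_6556c4 and 0.300 CPM in bulk_6556c3. Grhl2 was again lower in the high clone, at 0.107 CPM in bulk_6556c4 and 0.360 CPM in bulk_6556c3. These 2 values rest on 4 and 12 counts. With all tumours of a clone summed the order turned, to 0.857 CPM in bulk_6556c4 and 0.535 CPM in bulk_6556c3. Tumours numbered 1 of the other pair also had more Grhl2 in the high clone, 1.96 CPM of total counts in bulk_6499c4 and 1.35 in bulk_6499c3. The pair bulk_6419c5 and bulk_6419c1 are both labelled low, and they also differed, with 329 CPM of Epcam in bulk_6419c5 and 99.7 CPM in bulk_6419c1, and 30.9 CPM of Cldn7 in bulk_6419c5 and 7.08 CPM in bulk_6419c1.

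The comparison of intermediate with low clones is not independent of the choice of members. It shares the low clones with the comparison that chose them, and its clone bulk_7160c5 shares the first part of its name and much of its level with bulk_7160c2, at 97.1 CPM of Esrp1 in summed counts, against 96.8 CPM in bulk_7160c2. By edgeR's quasi-likelihood test on clone sums (2 against 7 clones), 0 of the 10 members passed an adjusted p of 0.05, and 0.0% of all 20348 genes did. At an unadjusted p under 0.05 there were 5 members and 3261 genes, and the smallest adjusted p over all genes was 0.132. DESeq2 called 939 genes, voom 130 and the fit with a replicate block 828. All 10 members passed the filter on low counts, and their median log2 difference was 1.59, against 0.03 over all genes. Esrp1 had a log2 difference of 3.95 (SE 1.03, adjusted p = 0.132), with 49.1 ± 68.0 CPM in intermediate clones (SD, n = 2) and 3.16 ± 1.297 CPM in low clones (SD, n = 7). Epcam had 2.49 (SE 0.86, adjusted p = 0.159), Cldn7 1.94 (SE 0.78, adjusted p = 0.226), Cldn4 1.89 (SE 0.84, adjusted p = 0.278), Grhl2 1.88 (SE 0.55, adjusted p = 0.132) and Cldn3 1.29 (SE 0.83, adjusted p = 0.496). Cdh1 had 0.30 (SE 0.24), Ocln 0.24 (SE 0.38), Elf3 0.08 (SE 0.30) and Esrp2 -0.08 (SE 0.30), with adjusted p of 0.618 or more.

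The intermediate clones lay far apart for these genes, so 1 clone decided the direction. Without bulk_7160c5 the log2 differences of intermediate minus low turned to -2.97 for Cldn3, -2.24 for Cldn7, -1.75 for Esrp1 and -1.66 for Cldn4. Epcam turned to -1.41, Ocln to -1.28 and Grhl2 to -0.25. Over the fits that left out single clones, the highest log2 differences were 4.94 for Esrp1, 3.44 for Epcam, 2.91 for Cldn7, 2.82 for Cldn4 and 2.70 for Grhl2. A fit without bulk_7160c5 or bulk_6422c5 leaves 1 intermediate clone, so no test of it is given. Esrp1 passed in edgeR when bulk_7160c2 was left out of the fit (adjusted p = 0.0431, among 567 of 20159 genes). It also passed in DESeq2 (0.0295, among 939 of 32278 genes). These fits share the low clones that helped choose the members, so their calls are not independent of that choice. In edgeR with tumours as samples and the tumour number as a replicate block, Esrp1 (adjusted p = 0.00766), Grhl2 (0.0206) and Epcam (0.0336) passed, among 828 of 18593 genes, in a fit that treats tumours of 1 clone as separate samples.

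The tumour number within a clone divided more genes than any other comparison made here, members included. In edgeR with the clone as a term (33 tumours of 15 clones, 15 numbered 1 against 18 with higher numbers), 8009 of 16666 genes passed an adjusted p of 0.05, or 48.1%, with 25.2% higher and 22.9% lower in tumours numbered 1. Of the members, 5 of 10 passed, 3 higher and 2 lower, a share near that of all genes. The median log2 difference was 0.27 over the members and 0.01 over all genes. All tumours numbered 1 are liver-rich, and all but 1 of those with higher numbers are liver-poor.

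Cldn3 was higher in tumours numbered 1 than in the mean of the others in 15 of 15 clones. Its median over clones was 64.0 CPM in tumours numbered 1 and 6.53 CPM in the others, a log2 difference of 2.91 (SE 0.72, edgeR adjusted p = 0.00242). Grhl2 was higher in 14 of 15 clones, with medians of 1.41 CPM in tumours numbered 1 and 0.360 CPM in the others (log2 difference 1.56, SE 0.34, edgeR adjusted p = 9.3e-04). Esrp1 was higher in 11 of 15 clones, with medians of 8.15 and 2.25 CPM in tumours numbered 1 and the others (log2 difference 1.13, SE 0.40, edgeR adjusted p = 0.0259). This call was lost without bulk_2838c3 (0.0618), bulk_6419c5 (0.0588) or bulk_6556c4 (0.0504).

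Elf3 and Cdh1 moved the other way. Elf3 was lower in tumours numbered 1 in 11 of 15 clones, with medians of 70.5 CPM there and 158 CPM in the others (log2 difference -0.77, SE 0.21, edgeR adjusted p = 0.00517). Cdh1 was lower in 12 of 15 clones, with medians of 626 CPM in tumours numbered 1 and 795 CPM in the others (log2 difference -0.33, SE 0.11, edgeR adjusted p = 0.0151). Cldn4 (0.75, adjusted p = 0.117), Esrp2 (0.33, 0.113), Ocln (0.21, 0.394), Cldn7 (-0.19, 0.644) and Epcam (-0.30, 0.440) did not pass. Esrp2 passed when the bulk_6499c3 tumours were left out (0.0419), and DESeq2 called Cldn4 (0.0481).

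**Figure D4:**
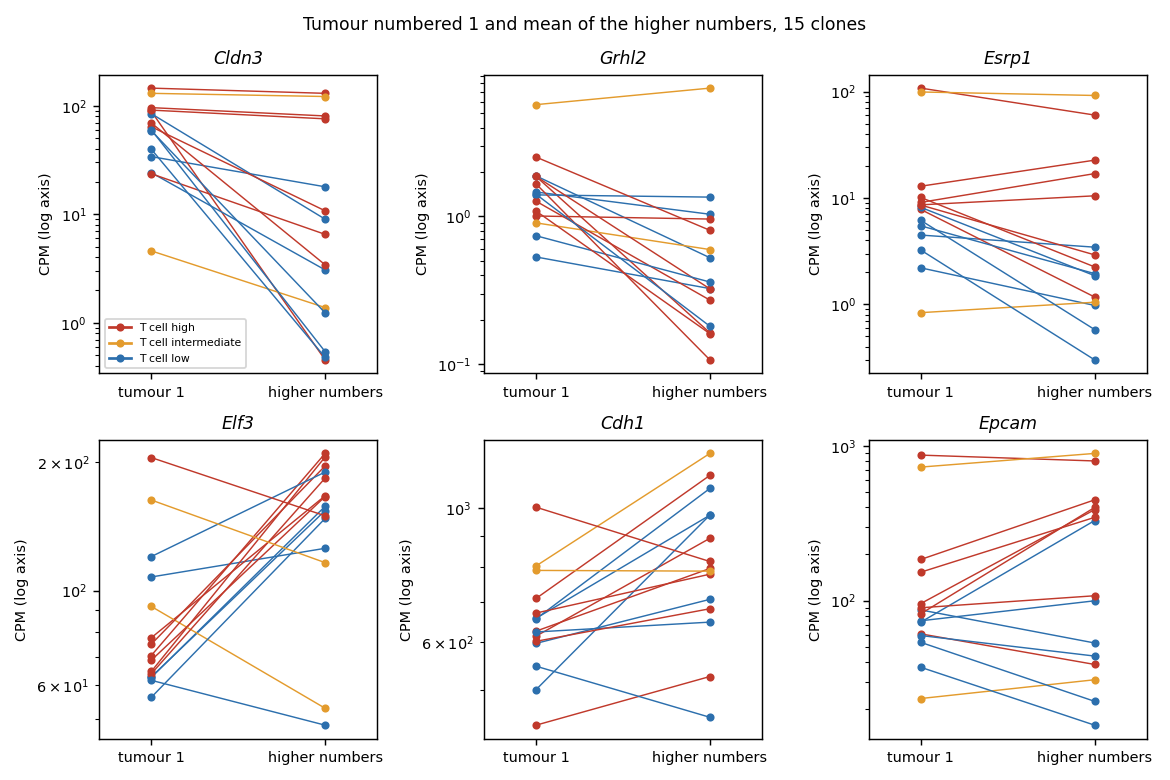
Level of 6 of the genes in CPM (log axis) in the tumour numbered 1 of each of 15 clones and, joined by a line, the mean of that clone's tumours with higher numbers, coloured by phenotype. Cldn3 is higher in the tumour numbered 1 in 15 of 15 clones, and Cdh1 is lower there in 12 of 15.

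Genes of liver, heart and lung moved with the tumour number too. All 10 liver genes tested were higher in tumours numbered 1, with a median log2 difference of 10.52, and so were all 6 heart genes, with a median of 7.23. Of 3 lung genes tested, 2 were called higher there (Sftpc and Sftpb), and the median log2 difference of the 3 was 3.51. In the 8 libraries where the liver and heart sum exceeded 50% of its highest value (3464 to 5922 CPM), Cldn3 spanned 58.9 to 96.0 CPM across 8 clones. In the 9 higher-numbered tumours of the same clones it spanned 0.274 to 80.5 CPM. Without those 8 libraries, which left 16 tumours of 7 clones, 0 of 10 members passed in edgeR, among 1133 of 16501 genes, and Cldn3 had a log2 difference of 1.63 (adjusted p = 0.181). The part of liver, heart or lung RNA in these member differences was not tested.

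Differences among clones of 1 phenotype were tested on tumours with the tumour number as a term. Among the 7 low clones edgeR called 2041 of 20421 genes, or 9.99%, and 0 members, with 5525 genes and 0 members at an unadjusted p under 0.05. The gene count was 510 without bulk_2669c4 and 1253 without bulk_6419c1. The smallest adjusted p of a member was 0.209, for Epcam. Among the 6 high clones other than bulk_7160c2 it called 502 genes, or 2.46%, and 0 members (5 genes without bulk_6421c2), and 3 members had an unadjusted p under 0.05, Cldn4 (adjusted p = 0.199), Epcam (0.245) and Cldn7 (0.280). At an unadjusted p under 0.05 there were 15.4% of all genes. DESeq2's likelihood ratio test called 2 members among these high clones, Cldn4 (adjusted p = 0.0191) and Epcam (0.0478), among 1724 of 31966 genes, and 0 members among low clones, where it called 4335 of 31966 genes.

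Levels of the members that varied most were correlated across clones. Over the 16 clones with liver-poor libraries, Pearson's r of log2 CPM was 0.91 for Cldn3 and Epcam, 0.89 for Epcam and Esrp1, 0.85 for Cldn3 and Esrp1, and 0.82 for Cldn7 and Epcam and for Cldn3 and Cldn4. Ocln, which varied less, had 0.78 with Cldn7, 0.77 with Epcam and 0.72 with Elf3. Esrp2 and Cdh1 formed a pair of their own (0.83). The paralogues Esrp1 and Esrp2 were nearly unrelated (0.03). Of 45 pairs, 18 exceeded 0.5, as did 18 without bulk_7160c2 and 17 without bulk_7160c2 and bulk_7160c5. These values describe 16 points of mostly 1 library each, and both genes of a pair share that library's depth and cell mixture. The genes were chosen by levels in some of the same clones, so shared variation is partly set by that choice.

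**Figure D5:**
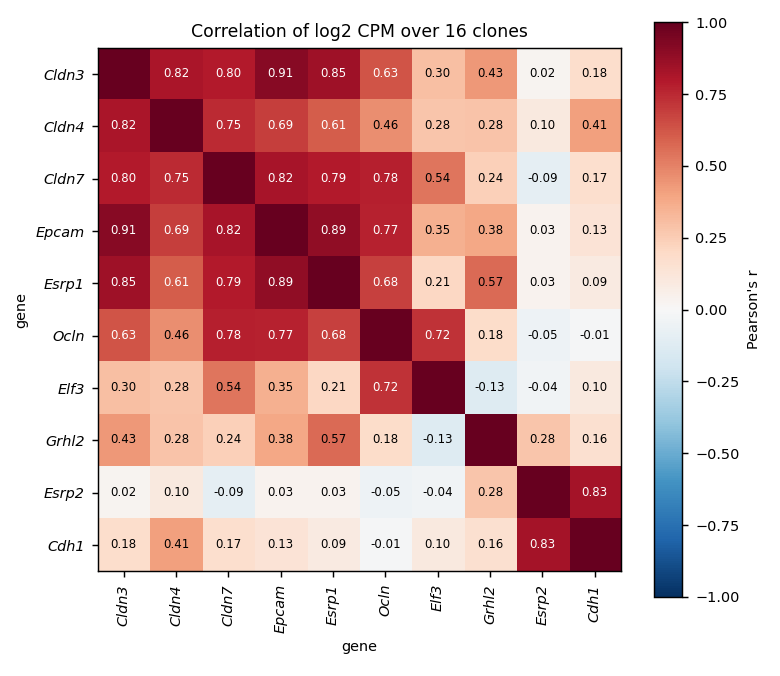
Pearson's r of log2 CPM between each pair of the 10 genes over the 16 clones with liver-poor libraries, as coloured. Pairs among Cldn3, Cldn4, Cldn7, Epcam and Esrp1 give 0.61 or more. Ocln gives 0.78 with Cldn7, 0.77 with Epcam, 0.68 with Esrp1, 0.63 with Cldn3 and 0.46 with Cldn4. Esrp2 goes with Cdh1 (0.83), and Esrp1 with Esrp2 gives 0.03.

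Among 13014 other genes with a mean of at least 1 CPM in these libraries, those most like the members' mean level over the 16 clones were Pglyrp1 (r = 0.95), which encodes a peptidoglycan recognition protein, Tmc4 (0.95), Tmem139 (0.93), Marveld3 (0.92), a tight junction protein related to occludin, and Smim22 (0.92). Tmc4 had 5.37, 30.3 and 116 CPM (lowest, median, highest) in the 8 liver-poor high tumours. It had 4.53, 9.11 and 21.3 CPM in the 7 liver-poor low tumours. Marveld3 had 2.15, 19.5 and 38.6 CPM in the same high tumours and 1.63, 5.13 and 22.3 CPM in the same low tumours. Both genes were picked by likeness to members that high against low values chose, so these levels partly restate that choice. Without bulk_7160c2, Pglyrp1, Tmc4, Tmem139 and Marveld3 remained among the first 5, joined by Ptpn18. The most opposed were Zcchc14, Troap and Cbx5 (-0.92 each) and Ptbp2 and Frrs1 (-0.91 each). Ptbp2 is a neural-type splicing regulator, and Cbx5 encodes a heterochromatin protein.

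Partner genes of the same pathways were called by tumour number at shares on both sides of the 48.1% of all genes, and nothing particular to them is read from the counts. Of 20 further tight junction genes tested, 3 were higher and 5 lower in tumours numbered 1, among them F11r, which encodes the junctional adhesion molecule A (log2 difference -0.48), and the claudins Cldn12 (0.55) and Cldn1 (2.53). Of 15 further adherens junction and desmosome genes, 4 were higher and 5 lower, among them Pvrl2 (-0.83), which encodes a nectin, Jup (-0.62), which encodes plakoglobin, and Cdh3 (1.22), which encodes P-cadherin. Of 14 epithelial transcription factors, 2 were higher and 3 lower, including the ductal factor Sox9 (-0.997) and Klf5 (-0.45). Of 22 epithelial surface, protease and trafficking genes, 2 were higher and 7 lower, including the protease inhibitor Spint2 (-1.04) and Sfn (-1.11), which encodes 14-3-3 sigma. The 15 RNA-binding and splicing genes have 16 entries in the count table, of which 2 were higher and 6 lower. They include Hnrnpm (-0.90), known from human cells as a competitor of ESRP1 in splicing, Rbm24 (5.91), known from muscle, and Rbm47 (-0.50).

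In the high minus low and intermediate minus low comparisons edgeR called 0 genes of any of these lists, as it called 0 of all genes. The median log2 difference of high minus low clones was 0.19 for tight junction partners, 0.03 for adherens junction and desmosome genes, 0.24 for epithelial transcription factors, 0.66 for epithelial surface and protease genes and -0.12 for RNA-binding genes. Among low clones, where edgeR called 9.99% of all genes, it called 1 of 22 tight junction partners (Cldn2), 2 of 16 epithelial transcription factors (Foxa1 and Sox9), 3 of 22 epithelial surface and protease genes (Cdh17, Tspan1 and Lamb3) and 3 of 10 mesenchymal regulators (Twist1, Twist2 and Prrx1). Among high clones other than bulk_7160c2, where it called 2.46% of all genes, it called 0 of 22, 2 of 16 (Foxa1 and Sox9), 0 of 22 and 1 of 10 (Twist1) genes of the same lists, in that order.

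Markers of tumour epithelium were abundant in both phenotypes. The 6 keratins of simple epithelium summed to 3635 to 9730 CPM in liver-poor high tumours (median 7079), 4416 and 5941 CPM in intermediate tumours and 5492 to 8720 CPM in low tumours (median 7286). The 10 mesenchymal regulators summed to 274 to 413 CPM in high tumours, 349.7 and 504 CPM in intermediate tumours and 269 to 409 CPM in low tumours. The 6 intestinal genes, such as Cdh17 and Vil1, summed to 515 to 1884 CPM in high tumours (median 1299) and 413 to 1101 CPM in low tumours (median 471), so their median was higher in high tumours, as it was for the claudins. T cell genes summed to 7.65 to 40.7 CPM in liver-poor high tumours (median 19.8) and 3.58 to 20.8 CPM in low tumours (median 10.1). Tumour 2 of the intermediate clone bulk_7160c5 had 51.3 CPM and that of bulk_6422c5 10.7 CPM. The highest of these high sums, 40.7 CPM, was in tumour 3 of bulk_2838c3, which also had the lowest Cldn3, 0.274 CPM. The part of these other cell types in the member levels was not tested.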

How the data were processed

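Per the labels, each sample is bulk RNA of 1 tumour, and the deposited values are raw counts of reads per gene, made by the authors with STAR and featureCounts on mm10 (per the submitters' processing notes). Their versions and any use of strand are not given in these sources. Every column of the table matched a sample (0 did not).

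CPM were computed with TMM scaling in edgeR 4.0.16 (R 4.3.3, limma 3.58.1, DESeq2 1.42.0, Python 3.11.15, numpy 2.4.6, pandas 2.3.3, scipy 1.17.1), and log2 CPM with a prior count of 2. Exon lengths and coordinates came from GENCODE M21 (GRCm38) and promoters from RefSeq. Phenotypes were compared on counts summed per clone by edgeR's quasi-likelihood test after filterByExpr, and tumour numbers and clones of 1 phenotype on tumours, with Benjamini-Hochberg adjustment over all genes tested. The code was tested on simulated data. No label says that tumours of a clone came from separate mice, so their spread may be technical.

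Same-numbered tumours deviated together between high and low clones (correlation 0.931, 0.883 and 0.645 for numbers 1, 2 and 3). The number was therefore used as the replicate block. Most clones have only tumours 1 and 2, so the values for these numbers are not independent. Number 3 rests on 1 high and 1 low tumour. The genes used include those of liver and heart, so these values do not show that the number pairs samples otherwise. The alternatives were other scaling, no filter, DESeq2, voom, the block, liver-poor or liver-rich libraries and leaving out single clones.

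The members and gene lists were chosen with earlier results of these data known. Beside the members, the text names up to 3 called genes per list (smallest p first) and the 5 genes most like and least like the members. Precision rests on depth: the scarcest member had as few as 4 counts in a library. Tumours without a phenotype label entered no comparison between groups.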

Additional observations from a re-analysis of the deposited data

Results flagged for a closer look

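A clone far from the rest was found in 5 of 20 groups of 7 clones. Chance flags about 1 in 20 groups, but that share is no yardstick here, because the genes were chosen by values of bulk_7160c2 and of high against low clones. In 4 of the 5 groups the clone was bulk_7160c2 among the high clones, which restates that choice. By the CPM of its summed counts it had 859.8 CPM of Epcam (next highest clone 361), 96.8 CPM of Esrp1 (next 19.6), 53.2 CPM of Ocln (next 34.2) and 2.12 CPM of Grhl2 (next 1.01). Among the low clones, bulk_6419c5 stood apart with 192 CPM of Epcam, where the next had 86.1 CPM.

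Tumours without a phenotype label entered no comparison, and some lay above every low tumour. Cldn7 was 65.3 CPM in the tumour of bulk_6883c4 and 49.6 CPM in that of bulk_7062c3, where the highest low tumour had 36.1 CPM. Grhl2 was 2.14 CPM in bulk_6883c4, where the highest low tumour had 1.88 CPM.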

How the results depend on the processing

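Over 21 alternatives, 0 members called by tumour number changed sign. Genes called between high and low clones numbered 0 in edgeR, 25 in DESeq2 and 77 with the replicate block. The fit with that block treats tumours of 1 clone as separate samples. Between intermediate and low clones edgeR called 0 genes. It called 567 without bulk_7160c2, 2 in liver-poor libraries without bulk_7160c2, 828 with the replicate block and 0 to 480 when single clones were left out, the 480 without bulk_6422c5 and 9 without bulk_6499c3, while DESeq2 called 939 and voom 130. Members called there were 0, then 1 without bulk_7160c2, 1 in DESeq2, 3 with the replicate block and 0 to 4 when single clones were left out.

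By tumour number, 1133 genes and 0 members were called without the 8 liver-richest libraries, and 2 members (Elf3 and Cdh1) with no replicate block of clones. Among low clones, genes called numbered 747 without the number term, 4335 in DESeq2 and 510 to 2207 without single clones, the lowest without bulk_2669c4 and then 1253 without bulk_6419c1. Among high clones other than bulk_7160c2 they numbered 230 without the number term, 1086 without the liver-richest libraries, 1724 in DESeq2 and 5 to 654 without single clones, the lowest without bulk_6421c2, and DESeq2 called 2 members. The cause was not tested. The fits without bulk_7160c2 in liver-poor libraries and without bulk_7160c2 and bulk_7160c5 were chosen after seeing the data. Depth limits Grhl2 most.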

Other observations

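The tumour of clone bulk_6883c1, which carries no phenotype label, had the lowest level of all 37 tumours for 6 of the 10 genes. Its Cdh1 was 56.2 CPM, Epcam 7.40 CPM, Cldn7 2.42 CPM, Esrp2 3.18 CPM, Ocln 2.49 CPM and Elf3 3.17 CPM. In the same tumour the 10 mesenchymal regulators summed to 891 CPM and the 6 keratins of simple epithelium to 1442 CPM. The sums of the tight junction partners (827 CPM) and of the adherens junction and desmosome genes (2484 CPM) were also the lowest of all tumours. The share of all genes that were lowest in this tumour was not counted, so nothing particular to the 10 genes is read from it. Its library was the deepest, at 161.7 M counts. These are values of 1 tumour, with no replicate.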
